A study of Homo sapiens with 4 samples.

Results

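The 6 genes CCN1, CCN2, AMOTL2, ANKRD1, TGFBI and THBS1, known as targets of the YAP and TGF-beta pathways, were followed through the acetylated chromatin of a melanoma cell line. The regions were found by gene name: every one that the authors' deposited table lists with 1 of these genes was taken, with CCN1 and CCN2 under their older symbols CYR61 and CTGF. This gave 102 of the 91107 distinct regions of the authors' deposited table, of which 6 lay beside CCN1, 16 beside CCN2, 11 beside AMOTL2, 13 beside ANKRD1, 15 beside TGFBI and 41 beside THBS1. The mark measured was H3K27ac, acetylated lysine 27 of histone H3, which lies at active promoters and enhancers, profiled by chromatin immunoprecipitation and sequencing. The cells were A375, an established human melanoma line, kept in DMEM with fetal bovine serum. The labels describe 2 libraries of cells given the vehicle isopropanol for 48 hours and 2 libraries of cells that received octanoate for 48 hours at 1 mM; octanoate is a fatty acid of medium chain length. All 4 libraries come from this 1 line, and the labels do not say whether those of 1 group were separate cultures.

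The authors' deposited table holds 1 comparison of the groups and no value per library. Depth per library is therefore unknown, and the spread between replicates cannot be shown. Each error given here as ± is the standard error that the authors' model assigned to the log2 fold change of 1 region, and p-values measure the spread between the fitted libraries, which may be technical. Which libraries entered the fit and the mean level is not named in it, so others than those described above may be included. The numerator of the fold change is also not named, so fold changes are given as positive or negative and not as gain or loss under octanoate. A mean level was read as the authors' mean normalized count for a region, and is given per kb of region where genes are compared.

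YAP and its paralog TAZ are coactivators that the kinases of the Hippo pathway keep out of the nucleus. In the nucleus they bind TEAD factors, which often sit at enhancers together with AP-1, and switch on genes of growth, adhesion and matrix. TGF-beta acts through receptor kinases and SMAD factors and switches on an overlapping group of matrix genes, and in melanoma both pathways are known for their activity in dedifferentiated, invasive cells.

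The promoters of 5 members, all but CCN1, show where these factors could bind, and all of these lay inside H3K27ac regions. RefSeq promoter windows of GRCh38.p14, from 250 bases before to 50 after the start, were found for 5 of the 6 members, with 2 windows for AMOTL2. All 300 bases of each of these 6 windows lay inside an H3K27ac region of the authors' deposited table. The TEAD motif GGAATG, searched on both strands, was present in 1 window each of CCN2, AMOTL2, ANKRD1 and THBS1, and in 14.0% of 34796 distinct RefSeq promoter windows of the same length. The window of CCN2 held 3 matches, that of ANKRD1 held 2 and those of AMOTL2 and THBS1 held 1 each. The AP-1 motif TGANTCA was present only in the ANKRD1 window among the 6, and in 7.73% of all windows. The 250 bases before the start are shown 5′ to 3′ for 1 window of each of the 5 genes, in capitals where they match the TEAD or the AP-1 motif. TGFBI is shown as the window with neither.

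CCN2 (chr6:131951373-131951622, minus strand): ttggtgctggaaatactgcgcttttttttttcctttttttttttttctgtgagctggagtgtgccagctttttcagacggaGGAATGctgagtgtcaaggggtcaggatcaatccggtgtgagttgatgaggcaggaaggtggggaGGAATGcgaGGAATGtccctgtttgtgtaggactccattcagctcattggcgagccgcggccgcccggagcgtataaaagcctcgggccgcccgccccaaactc

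AMOTL2 (chr3:134374448-134374697, minus strand): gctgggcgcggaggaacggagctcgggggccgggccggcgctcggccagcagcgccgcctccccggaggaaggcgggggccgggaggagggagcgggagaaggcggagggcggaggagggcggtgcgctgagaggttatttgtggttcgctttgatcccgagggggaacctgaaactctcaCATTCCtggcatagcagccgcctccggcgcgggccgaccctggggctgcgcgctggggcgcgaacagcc

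ANKRD1 (chr10:90921088-90921337, minus strand): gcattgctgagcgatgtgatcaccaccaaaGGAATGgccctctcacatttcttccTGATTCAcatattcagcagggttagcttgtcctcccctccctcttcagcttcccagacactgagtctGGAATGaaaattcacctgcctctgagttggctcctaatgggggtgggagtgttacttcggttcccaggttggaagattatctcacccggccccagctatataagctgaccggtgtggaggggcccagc

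TGFBI (chr5:136028738-136028987, plus strand): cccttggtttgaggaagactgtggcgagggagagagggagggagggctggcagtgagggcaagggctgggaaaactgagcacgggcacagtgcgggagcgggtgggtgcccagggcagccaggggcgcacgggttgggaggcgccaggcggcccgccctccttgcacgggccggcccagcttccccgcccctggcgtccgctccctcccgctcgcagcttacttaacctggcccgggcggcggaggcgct

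THBS1 (chr15:39580829-39581078, plus strand): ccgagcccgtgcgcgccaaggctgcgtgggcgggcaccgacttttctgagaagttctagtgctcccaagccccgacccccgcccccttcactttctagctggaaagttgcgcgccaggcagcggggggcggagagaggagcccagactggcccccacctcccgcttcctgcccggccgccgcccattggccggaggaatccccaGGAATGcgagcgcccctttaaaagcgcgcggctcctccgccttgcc

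In CCN2 the 3 TEAD matches began 169, 104 and 95 bases before the start, so that the 2 nearer ones were neighbours. In ANKRD1 they began 220 and 128 bases before the start, with the AP-1 match between them at 195 bases. The THBS1 match began 46 bases before the start, and the AMOTL2 match 69 bases before the start of its window. The short SMAD box CAGAC was present in windows of CCN2, AMOTL2, ANKRD1 and THBS1 and in 45.3% of all windows. The SMAD palindrome GTCTAGAC (0.193% of all windows) and the CArG box of the serum response factor (1.30%) were in none of the 6 windows. The TATA box TATAAA was in the CCN2 window and in 11.6% of all. The GC box GGGCGG was in windows of CCN2, AMOTL2, TGFBI and THBS1 and in 44.9% of all, and 2 of its matches in CCN2 overlap each other. A match is a description of the letters and not of a bound site.

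Across the 6 genes, no region passed the authors' test, and most fold changes lay below that of a typical region. The authors had adjusted the p-values of 56 of the 102 member regions in the authors' deposited table; the other 46 had lower mean levels than the limit that the authors' adjustment applied, which lay at 18.44. Of the 56, 0 had an adjusted p-value under 0.05 in the authors' DESeq2 results, beside 1.67% of the 36436 regions tested in all (1.65% positive and 0.0192% negative), a share at which less than 1 call would fall among 56 regions. At an unadjusted p-value under 0.05 there were 5 member regions in the authors' deposited table, 2 positive and 3 negative. The shares over all tested regions were 17.9% positive and 0.475% negative. The 2 positive ones are a smaller share of 56 than the background and the 3 negative ones a larger share.

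The whole of the authors' deposited table is shifted to positive values, with a median log2 fold change of 0.32 over tested regions, and values are therefore also given relative to it. The 56 tested member regions had a median of 0.10 in the authors' deposited table, or -0.22 relative to all tested regions. Of these, 35 were positive in the authors' deposited table, while 48, or 85.7%, lay below the median of all tested regions. THBS1 held 27 of the 56 and 25 of the 48, while 2 of the 6 tested AMOTL2 regions lay below. The tested regions of other genes within 1 Mb of the members had medians from 0.20 around TGFBI to 0.35 around AMOTL2. Of all 102 member regions, 56.9% were positive in the authors' deposited table, beside 73.7% of all regions, and 21.6% lay above the median of all tested regions. After subtraction of that median, 9 of the 56 tested member regions lay below it at an unadjusted p-value under 0.05 and 0 above it, beside 3.13% and 2.6% of all tested regions. The normal 95% intervals behind these p-values rest on the authors' standard errors.

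**Figure D1:**
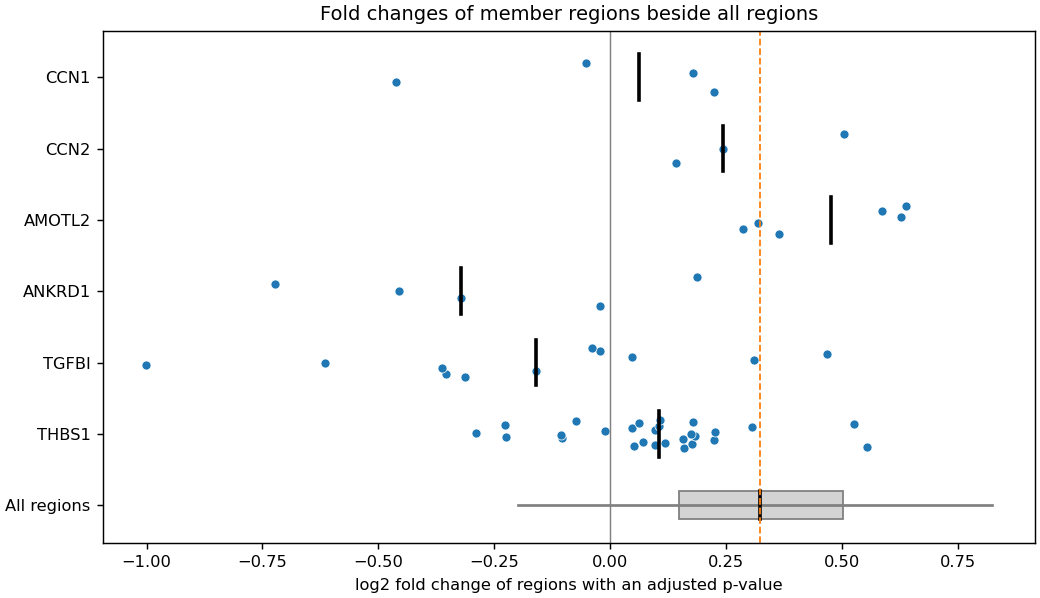
Log2 fold change (horizontal axis) of each tested region of the 6 genes as points, with the median of each gene as a black bar, and the 5th, 25th, 50th, 75th and 95th percentiles of all 36436 tested regions as a line, box and bar. The dashed line marks the median of all tested regions, 0.32; the gene medians run from -0.32 for ANKRD1 to 0.48 for AMOTL2.

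At the gene starts the mark differed in level between the genes. Each of the 6 genes had 1 region over its start, and all 6 had an adjusted p-value. Per kb of region, the mean level in the authors' deposited table was 36.2 at AMOTL2, 29.9 at TGFBI, 28.2 at THBS1, 26.3 at CCN1, 14.6 at CCN2 and 12.7 at ANKRD1. The median over all regions at starts was 25.3 per kb in the authors' deposited table, so 4 genes lay above it and CCN2 and ANKRD1 below. Which neighbours in this order differ beyond their spread cannot be told, because no value per library is held. The regions also differed in width: that of AMOTL2 covered 20189 bases, wider than 99.9% of all regions of the authors' deposited table, and that of TGFBI 1383 bases.

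The fold change at the starts was small in all 6 genes. In the authors' deposited table the log2 fold change was 0.23 ± 0.22 at CCN1, 0.14 ± 0.24 at CCN2 and 0.32 ± 0.21 at AMOTL2. It was -0.02 ± 0.31 at ANKRD1, 0.31 ± 0.31 at TGFBI and 0.18 ± 0.21 at THBS1 in the authors' deposited table. In the authors' DESeq2 results the 6 starts had adjusted p-values between 0.37 and 0.968. All 6 values lay below 0.35, which the authors' deposited table gives as the median over its 9996 tested start regions, and the 95% interval of each contains both 0 and the median of all tested regions.

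**Figure D2:**
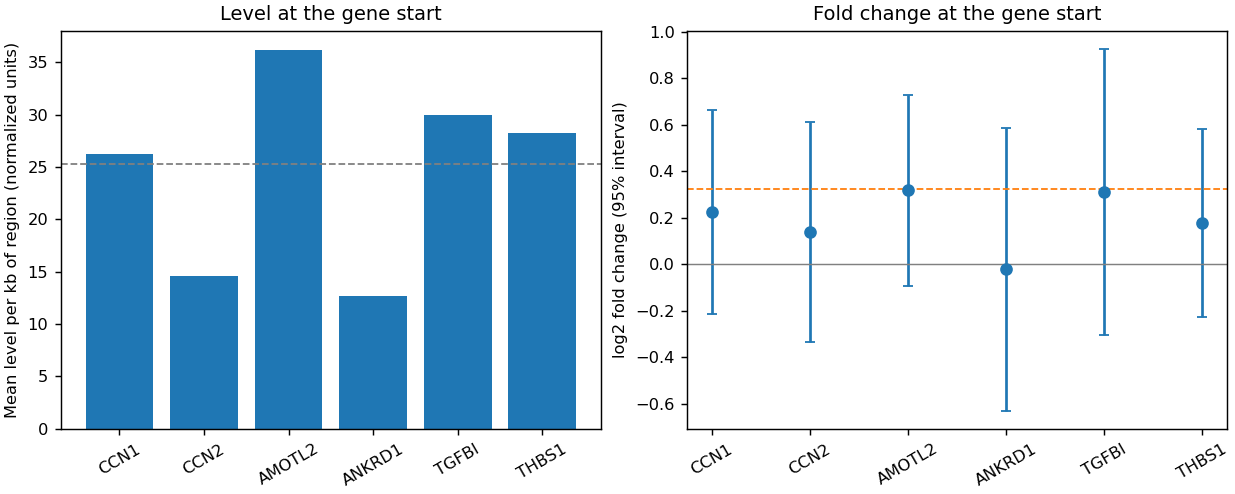
Left, mean level per kb (normalized units) of the region over each gene's start, with the median of all regions at starts, 25.3, as a dashed line; right, its log2 fold change with the 95% interval from the authors' standard error. The orange dashed line is the median of all tested regions, 0.32, and lies within all 6 intervals.

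CCN1 and CCN2 encode secreted matricellular proteins of the CCN family, and are the targets most used to read YAP activity. The CCN1 start lay in chr1:85575741-85585196, at a mean level of 248 in the authors' deposited table, which lists this region also with DDAH1, an enzyme of methylarginine breakdown whose start it overlaps. The other 3 tested CCN1 regions lay 20.7, 25.4 and 30.6 kb downstream of the start. The nearest of these, chr1:85601417-85603166, had a log2 fold change of -0.46 ± 0.37 in the authors' deposited table (p-value 0.211 before and 0.452 after adjustment). The other 2 had 0.18 ± 0.31 and -0.05 ± 0.34 in the authors' deposited table. All 4 tested CCN1 regions were below the median of all tested regions.

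The CCN2 start lay in chr6:131948089-131955420, at a mean level of 107 in the authors' deposited table. Only 3 of the 16 CCN2 regions had an adjusted p-value, and the other 13, with lower mean levels, lay mostly upstream of the gene. Of the tested ones, chr6:132060139-132062265, 109 kb upstream, had 0.24 ± 0.33 and chr6:132130775-132133864, 179 kb upstream inside the long noncoding LINC01013, 0.50 ± 0.31 in the authors' deposited table, the latter at 0.35 after adjustment. The CCN2 regions of the authors' deposited table had 13 positive and 3 negative values, or 81.3% positive beside 73.7% of all regions.

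AMOTL2 encodes an angiomotin, a junctional scaffold that binds YAP and restrains it, so that it acts as feedback on the pathway that switches it on. Of the 6 genes its tested regions had the highest median: in the authors' deposited table all 11 of its regions were positive, and the 6 tested ones had a median of 0.48, or 0.15 above all tested regions. Its start region chr3:134356182-134376371 had a mean level of 730, above 99.9% of all regions of the authors' deposited table. The 3 tested regions upstream, at 30.4, 44.0 and 50.2 kb from the start, had log2 fold changes of 0.63 ± 0.33, 0.59 ± 0.39 and 0.64 ± 0.24 in the authors' deposited table. The farthest of them, chr3:134425678-134429181, had a p-value of 0.00765 before and 0.139 after adjustment in the authors' deposited table, and relative to all tested regions it was 0.31 higher (unadjusted p-value 0.188). The 2 tested downstream regions, at 42.7 and 56.5 kb, had 0.29 ± 0.22 and 0.37 ± 0.23 in the authors' deposited table, near the median of all tested regions. Around AMOTL2, the 32 tested regions of 12 other genes within 1 Mb had a median of 0.35 in the authors' deposited table. The nearest tested regions on either side, beside RYK and CEP63, had 0.41 ± 0.23 and 0.58 ± 0.37 in the authors' deposited table, and a further CEP63 region passed the authors' test with 0.97 ± 0.23 (adjusted p-value 0.00787). Around CCN1 and CCN2, the medians of 31 and 17 such regions were 0.30 and 0.21 in the authors' deposited table.

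ANKRD1 encodes a nuclear ankyrin repeat protein, best known from stressed muscle and as a sensitive readout of YAP in cultured cells. Its tested regions had the lowest median of the 6 genes, -0.32 in the authors' deposited table: 12 of its 13 regions were negative, where 26.3% of all regions are, and 4 of the 5 tested ones were. The start region chr10:90919255-90921842 had a mean level of 32.8 in the authors' deposited table. Upstream, the region at 7.65 kb (chr10:90928928-90932371) had a log2 fold change of -0.32 ± 0.26 and that at 13.5 kb (chr10:90934800-90937103) -0.46 ± 0.34 in the authors' deposited table. The lowest of the tested regions was chr10:91021801-91025282, 101 kb upstream and overlapping the uncharacterized noncoding gene LOC124902479. It had -0.72 ± 0.25 in the authors' deposited table at a mean level of 64.0. Its unadjusted p-value was 0.00374 and its adjusted one 0.101 in the authors' DESeq2 results, so it did not pass. Of the weaker regions without an adjusted p-value, 3 had lower values in the authors' deposited table, down to -1.07 ± 0.87. Relative to the median of all tested regions it was -1.05, which gave an adjusted p-value of 0.0327, and it was then the only member region of the 56 that passed, beside 0.124% of all tested regions. The next region, 113 kb upstream, had the only positive value of the gene, 0.19 ± 0.38 in the authors' deposited table.

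The ANKRD1 values were set beside those of the chromatin around the gene. The 23 tested regions of 8 other genes within 1 Mb of its start had a median of 0.20 in the authors' deposited table, and 5 of them were negative. The nearest tested regions on either side of the ANKRD1 group, beside RPP30 and PCGF5, had 0.26 ± 0.23 and 0.71 ± 0.28 in the authors' deposited table. They lay 36809 and 126308 bases from the group. The median over all other tested regions of chromosome 10 was 0.32 in the authors' deposited table. These differences between regions were not tested, because regions share the same libraries.

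TGFBI encodes a secreted matrix protein with fasciclin domains, named for its induction by TGF-beta. All 8 regions upstream, within 28.7 kb of chromatin, were negative in the authors' deposited table, and the 6 tested ones had a median of -0.36. In order of approach to the gene, the tested values in the authors' deposited table were -0.31 ± 0.33 at 33.9 kb, -0.35 ± 0.25 at 25.7 kb, -0.16 ± 0.25 at 19.9 kb and -0.36 ± 0.35 at 16.2 kb. They were -1.002 ± 0.389 at 13.7 kb (chr5:136013695-136015229) and -0.61 ± 0.26 at 7.11 kb (chr5:136017231-136021784) in the authors' deposited table. These last 2 had unadjusted p-values of 0.00995 and 0.0166 and adjusted ones of 0.155 and 0.185 in the authors' DESeq2 results. Relative to all tested regions they were -1.33 and -0.94, with adjusted p-values of 0.169 and 0.107 after centring, so neither passed in either form. The region at 13.7 kb had a fold change lower than all but 0.0384% of tested regions of the authors' deposited table, at a mean level of 20.8, just above the limit for an adjusted p-value.

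From the start onward the TGFBI values had mixed signs, with 3 of the 6 regions within the gene negative in the authors' deposited table. The start region chr5:136028546-136029929 had a mean level of 41.4, and the 4 tested regions within the gene had a median of 0.01 in the authors' deposited table. Of these, the region 11.7 kb past the start (chr5:136040605-136044231) had 0.47 ± 0.27, and those at 6.79, 22.8 and 27.3 kb had 0.05 ± 0.28, -0.02 ± 0.24 and -0.04 ± 0.30 in the authors' deposited table. The 2 regions within the gene that were not tested had 0.18 ± 0.46 and -0.22 ± 0.70 in the authors' deposited table. Mean levels of the 6 upstream regions lay between 13.5 and 23.9 per kb in the authors' deposited table, and those of the 4 within the gene between 18.0 and 24.6, so the ranges overlap. The nearest tested region beyond the gene, beside SMAD5, had 0.20 ± 0.24 in the authors' deposited table. On the upstream side the nearest, beside TIFAB, had 0.15 ± 0.27 but lay 498329 bases from the TGFBI regions. The 11 tested regions of 4 other genes within 1 Mb had a median of 0.20 in the authors' deposited table. The difference between the sides of the start was not tested.

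THBS1 encodes thrombospondin 1, a large matricellular glycoprotein that can release active TGF-beta from its latent complex. It held the most regions, because the authors' deposited table lists a gene-poor stretch of up to 439 kb upstream with it; 38 of its 41 regions lay upstream, 30 of them overlapping the noncoding gene LOC105370777. The start region chr15:39577490-39587133 had a mean level of 272 in the authors' deposited table. The 24 tested upstream regions had a median of 0.10 in the authors' deposited table, with extremes of -0.29 and 0.55. Of these, 22 lay below the median of all tested regions. The highest, chr15:39144345-39148176 at 433 kb, had 0.55 ± 0.25 in the authors' deposited table with a p-value of 0.0274 before and 0.22 after adjustment. The lowest, chr15:39281150-39285123 at 296 kb, had -0.29 ± 0.28 in the authors' deposited table. The 2 regions within the gene had -0.07 ± 0.29 and 0.11 ± 0.25 in the authors' deposited table, and the latter also overlaps the neighbouring gene FSIP1. Around THBS1 the 61 tested regions of 20 other genes had a median of 0.21, of which 18 were negative in the authors' deposited table.

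**Figure D3:**
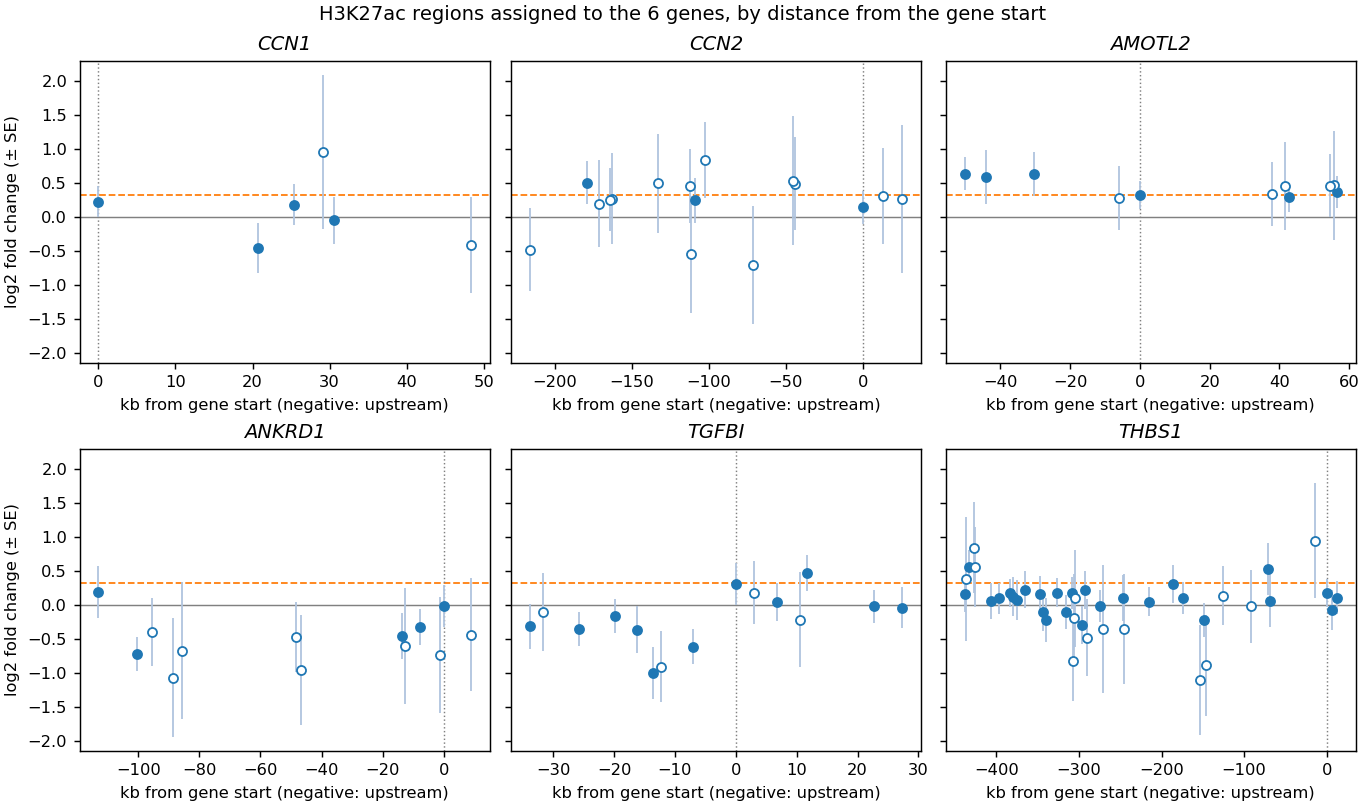
Log2 fold change with the authors' standard error (vertical axis) of all 102 regions against their distance in kb from the start of the assigned gene, with upstream to the left. Filled points have an adjusted p-value and open points do not; the dashed line is the median of all tested regions, 0.32. All upstream TGFBI regions and 10 of the 11 upstream ANKRD1 regions lie below 0, and all AMOTL2 regions above it.

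Other genes of the 2 pathways were taken from lists and described in the same way, as counts and medians beside those of all tested regions. Among 131 tested regions beside 18 other YAP and TAZ targets, 93, or 71.0%, lay below the median of all tested regions, and their own median was 0.16 in the authors' deposited table. CRIM1 and TGFB2 held 18 tested regions each, of which 16 and 17 lay below. By gene, 12 of the 18 medians lay below that of all tested regions. There was 1 call among the 131 in the authors' deposited table, against a share of 1.67% over all tested regions. It was a positive region beside DOCK5, an activator of the small GTPase RAC, with 1.02 ± 0.29 and an adjusted p-value of 0.0313. The DOCK5 region lay 113976 bases from the gene's start and did not pass after centring (adjusted p-value 0.606). A region 891340 bases from the start of CRIM1, a transmembrane antagonist of bone morphogenetic proteins, passed only after centring, with -0.84 ± 0.26 in the authors' deposited table and adjusted p-values of 0.0542 before and 0.0124 after; it was singled out after its values were seen.

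Of 58 tested regions beside 11 other TGF-beta targets, 25, or 43.1%, lay below the median of all tested regions, and their median was 0.37 in the authors' deposited table. By gene, 4 of the 11 medians lay below that of all tested regions, among them those of fibronectin FN1 and the integrin ITGB6, whose 6 and 5 tested regions were all below. None of the 58 passed the authors' DESeq2 test, against 1.67% of all tested regions. At an unadjusted p-value under 0.05 there were 12, all positive, a share close to the 17.9% over all tested regions. Among the highest statistics in the authors' deposited table was that of the start region of PMEPA1, a feedback inhibitor of SMAD signalling, with 0.75 ± 0.23 (adjusted p-value 0.0634). For a region beside the sphingosine kinase SPHK1, the authors' deposited table gives 0.75 ± 0.27 (adjusted p-value 0.118). The lowest statistics in the authors' deposited table belonged to regions beside COL1A1, a fibrillar collagen (-0.42 ± 0.34), FN1 (-0.29 ± 0.31) and the inhibitory SMAD7 (-0.36 ± 0.41).

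Genes that run the pathways were described next. Beside 21 genes of the Hippo pathway and its cofactors, 93 regions were tested with a median of 0.33, and 48.4% lay below the median of all tested regions in the authors' deposited table. There were 2 calls among the 93, both positive, against a share of 1.67% over all tested regions. Both lay beside STK4, the Hippo kinase also called MST1, with 0.67 ± 0.20 (adjusted p-value 0.0451) and 0.81 ± 0.22 (0.0288) in the authors' deposited table. For the TGF-beta ligands, receptors and SMADs, 80 regions were tested with a median of 0.22, and 65.0% lay below the median of all tested regions in the authors' deposited table. TGFB2 held 18 of the 80, with 17 of them below that median, and is also among the other YAP and TAZ targets. The 1 call among the 80, against the same share of 1.67%, lay 256591 bases from the start of TGFBR2, the type II receptor. For it the authors' deposited table gives 0.85 ± 0.25 (adjusted p-value 0.0394). None of these 3 regions passed after centring.

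The paralogs of the members had 32 tested regions beside 10 genes with a median of 0.28 in the authors' deposited table, and 56.3% lay below the median of all tested regions. None passed the authors' DESeq2 test, against 1.67% of all tested regions. An unadjusted p-value under 0.05 was found for 1, against a share of 18.4% over all tested regions. It lay beside the thrombospondin THBS2, with 0.78 ± 0.38 in the authors' deposited table. Another THBS2 region had the lowest statistic of the list, with -0.45 ± 0.39 in the authors' deposited table. A region beside the angiomotin AMOTL1 had 0.60 ± 0.33 and the start region of ANKRD2, a muscle paralog of ANKRD1, -0.09 ± 0.25 in the authors' deposited table.

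**Figure D4:**
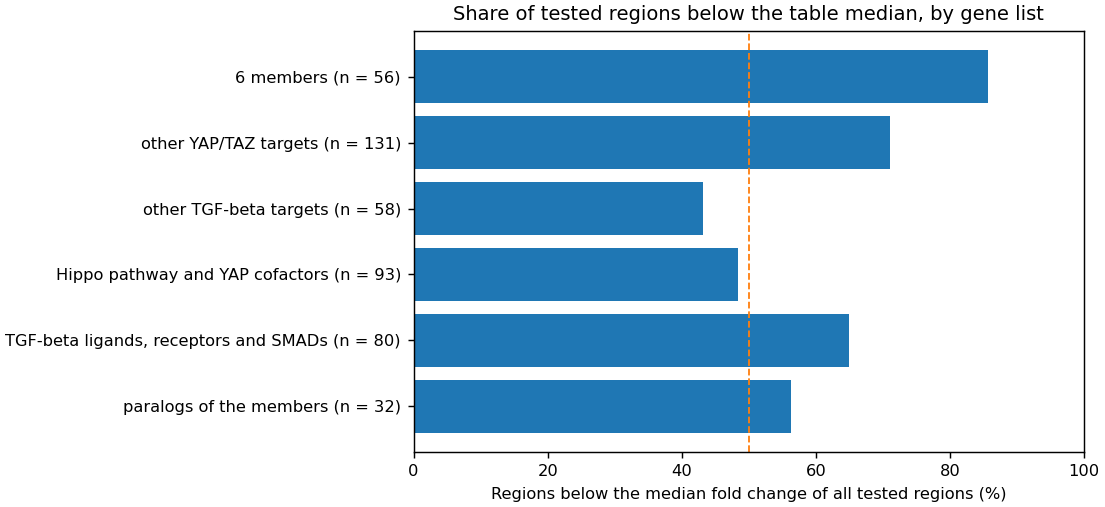
Share (%) of tested regions whose log2 fold change lies below the median of all tested regions, for the 6 members and 5 lists of related genes, with the number of tested regions in brackets. The dashed line marks 50%, the share over all tested regions by construction. The members are at 85.7%, with 27 of their 56 regions beside THBS1, and the other TGF-beta targets at 43.1%. Of the 131 regions of the other YAP and TAZ targets, CRIM1 and TGFB2 hold 18 each. The lists overlap in LATS2, TGFB2, SMAD7, AMOT and AMOTL1.

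The identity of the cells was checked on marker genes. Of 6 melanocytic markers, the starts of SOX10, PMEL and MITF lay in regions whose mean levels in the authors' deposited table were 774, 269 and 98.4, and MLANA, TYR and DCT had no region over their start. The 4 markers of the dedifferentiated state, AXL, JUN, NGFR and SOX9, each had a region over their start, at mean levels of 516, 207, 97.6 and 39.4 in the authors' deposited table. The 38 tested regions beside these 4 genes, 18 of them beside SOX9 and 15 beside JUN, had a median of 0.50 in the authors' deposited table. Of the 38, 28.9% lay below the median of all tested regions, though 3 of 4 did for NGFR. An unadjusted p-value under 0.05 was found for 18, all positive, against a share of 17.9% over all tested regions. The 2 calls among the 38, against 1.67% of all tested regions, lay beside JUN, and neither passed after centring. The 15 tested regions beside the melanocytic markers, 11 of them beside MITF, had a median of 0.29 in the authors' deposited table. Of these, 73.3% lay below the median of all tested regions. Among 6 markers of blood, epithelium and endothelium, only EPCAM had a region over its start, at a mean level of 50.5 in the authors' deposited table, and PTPRC, CD3E, KRT5, PECAM1 and CDH5 had none. Regions away from the starts were listed with all 5, with highest mean levels of 408 for PTPRC, 164 for PECAM1 and 148 for CDH5 in the authors' deposited table. Of the 33 tested regions of the 6 markers, 1, beside CDH5, was a call, against 1.67% of all tested regions.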

How the data were processed

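H3K27ac was profiled in 2 vehicle and 2 octanoate libraries, grouped by the treatment in the labels. Per the submitters' processing notes, which give no roles or order, Trim Galore, cutadapt, FastQC, Bowtie2, Picard, MACS2, featureCounts, DESeq2 and bedtools 2.29.1 were used with build hg38. How regions were called and merged is not given in the sources used here.

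The 1 table analysed holds the authors' own comparison. Per the file headers, the deposited mean level is a normalized signal, the fold change and its standard error are on the log2 scale, and the score is their ratio. Recomputing the authors' deposited p-value from a normal score differed by at most 2.89e-15. Where the deposited adjusted value was under 1, in 36436 regions, repeating the Benjamini-Hochberg step differed by at most 1.58e-14, so a value of 1 was read as not computed. Coordinates are as in the table. Distances were read as running to the gene's 5′ end: among 9811 genes longer than 5 kb, the point implied by the deposited distances lay within 1 kb of the RefSeq (GRCh38.p14) 5′ end in 83.3% and of the 3′ end in 0.0102%. Upstream and downstream were then set by strand. Regions are listed with the gene or genes the authors assigned, which does not show that a region regulates the gene.

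No refit was possible without values per library; the authors' results are described. Centring subtracted the median of tested regions, kept the authors' standard errors and repeated the adjustment. It was tested on simulated regions with independent errors and a common shift, as centring assumes. Errors shared between regions were not simulated. Regions repeated for another gene were counted once. All regions of the members are covered by gene; of the lists, genes with a call were named, or else the 3 highest and 3 lowest statistics; 1 such region is not reported here. The members, lists and tests were chosen with earlier results of these data known. Alternatives were a stricter threshold (0.01), a minimum size of the log2 fold change (1), centring, adjustment over all distinct regions, a mean level of at least 10, regions within 100 kb, and leaving out each gene. Columns of single libraries left out numbered 0. Python 3.11.15, pandas 2.3.3 and scipy 1.17.1 were used.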

Additional observations from a re-analysis of the deposited data

How the results depend on the processing

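No paired analysis was possible because single libraries have no values here, and for the same reason the replicate block and leaving out of single libraries were not run. Motifs in whole H3K27ac regions were not searched, because no genome was used here. The 608 calls over all regions became 128 at the threshold of 0.01, 319 among fold changes no smaller than 1 (log2), 250 with adjustment over all distinct regions and 45 after centring. The 0 calls among member regions stayed 0 in these settings except centring, which gave 1. Member regions with an unadjusted p-value under 0.05 numbered 5; within 100 kb there were 3, after centring 11 of all 102, and without each gene 3 to 5. The median over all 102 member regions, tested or not, was 0.10 and became -0.23 after centring, a reversal. It ran from 0.05 to 0.14 without each gene and was 0.01 within 100 kb. The share of positive member regions, 56.9%, became 21.6% above the median after centring, also a reversal, ran from 51.6 to 64.0% without each gene and was 50% within 100 kb. Calls went from 2 to 0 for the Hippo list after centring, and from 1 to 0 for the TGF-beta ligand list after centring and within 100 kb. The other YAP target list had 1 call, and 0 within 100 kb. Of 56 tested member regions, 56 kept their side of the threshold under adjustment over all distinct regions and 55 after centring. The changes under centring follow from its construction, since a shift common to most regions was subtracted. Depth per library is unknown.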

Other observations

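Among the other YAP and TAZ targets the values differed from gene to gene. Of the 18 genes, 12 had a median below that of all tested regions and 3 had a negative one in the authors' deposited table. These 3 were CRIM1, with a median of -0.02 over 18 tested regions, RBMS3, an RNA-binding protein, with -0.01 over 7, and TGFB2, a TGF-beta ligand, with -0.02 over 18 in the authors' deposited table. The highest medians in the authors' deposited table belonged to the receptor kinase AXL (0.50, 1 region), the stress gene GADD45A (0.47, 2 regions) and the ectonucleotidase NT5E (0.43, 8 regions). These genes were picked by their values. TGFB2 belongs also to the list of TGF-beta ligands.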
